A study of Mus musculus with 8 samples.

Results

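The 10 marker genes of inhibitory interneurons described here were measured in the right cerebral cortex of mice after bilateral carotid artery stenosis (BCAS). The genes were chosen by symbol, as 10 of the 54752 genes in the count tables: Gad1 and Gad2, which mark nearly every GABA neuron, and 8 markers of interneuron subtypes, Pvalb, Sst, Vip, Lamp5, Npy, Reln, Calb2 and Cck. Each symbol matched 1 gene, and all 10 passed the filter on low counts. Bulk RNA was collected 3 weeks after the operation from 4 sham-operated mice and 4 mice with BCAS, each library holding the RNA of 1 mouse. All were wild-type adult male mice, C57BL/6 by the labels and C57BL/6 J by the study's methods. In BCAS, a microcoil narrows each common carotid artery and lowers the blood supply of the forebrain chronically, and the coil on the right side was the narrower of the pair. The samples give 1 hemisphere at 1 time, and sham mice had the arteries exposed but carried no coil. The purpose of the sequencing was to find the genes that change in the hypoperfused cortex, and the question here is whether markers of the interneuron subtypes changed with, or apart from, the pan-inhibitory genes.

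GABA, the main inhibitory transmitter of the cortex, is made from glutamate by 2 decarboxylases, GAD67 (Gad1) and GAD65 (Gad2). Cortical interneurons fall into classes that are told apart by calcium-binding proteins and neuropeptides. Fast-spiking basket and chandelier cells carry parvalbumin (Pvalb), Martinotti and related dendrite-targeting cells carry somatostatin (Sst), and many cells that inhibit other interneurons carry vasoactive intestinal peptide (Vip) or calretinin (Calb2). Neurogliaform cells carry Lamp5, often with neuropeptide Y (Npy) and the secreted glycoprotein reelin (Reln), and a group of large basket cells carries cholecystokinin (Cck). Several of these genes are not confined to interneurons: pyramidal neurons also transcribe Cck and, in some layers, Lamp5, and the GABA neurons of the striatum carry Gad1 and Gad2.

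Promoter sequences are shown because Sst and Cck, which changed in the same direction, are textbook targets of the cyclic AMP response element (CRE), the palindrome TGACGTCA. RefSeq windows on GRCm38.p6 were found for 9 of the 10 genes, with 2 start sites each for Pvalb and Lamp5, and Calb2 had none. The 250 bases before each start were searched on both strands for the palindrome and for its shorter form TGACG, which lies in the palindrome on either strand. The palindrome was found in 1.55% of all 32851 promoter windows and in 1 of the 9 genes, Sst. The shorter form was found in 17.8% of all windows and in 4 of the 9 genes, Sst, Cck, Vip and Gad2. The percentages count windows, whereas the 9 genes, with 11 windows, are counted by gene. The windows of Sst, Cck and Gad2 follow, with that of Lamp5, the gene with the largest fold change, at its start site at the 5′ end of the gene. Each runs 5′ to 3′ on the gene's own strand, and capitals mark TGACG or its reverse complement. The windows are chr16:23890845-23891094 on the minus strand for Sst, chr9:121495695-121495944 on the minus strand for Cck, chr2:22622077-22622326 on the plus strand for Gad2 and chr2:136052089-136052338 on the plus strand for Lamp5.
Sst: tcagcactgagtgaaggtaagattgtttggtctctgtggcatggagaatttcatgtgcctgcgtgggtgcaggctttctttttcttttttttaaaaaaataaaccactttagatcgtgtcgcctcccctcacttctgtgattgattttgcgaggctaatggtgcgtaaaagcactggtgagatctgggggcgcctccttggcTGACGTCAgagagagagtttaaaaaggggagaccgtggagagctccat
Cck: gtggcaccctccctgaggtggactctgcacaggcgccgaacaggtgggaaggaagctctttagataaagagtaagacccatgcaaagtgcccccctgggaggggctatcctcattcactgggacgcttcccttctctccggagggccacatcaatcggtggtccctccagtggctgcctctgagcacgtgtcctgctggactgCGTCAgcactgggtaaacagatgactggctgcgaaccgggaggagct
Gad2: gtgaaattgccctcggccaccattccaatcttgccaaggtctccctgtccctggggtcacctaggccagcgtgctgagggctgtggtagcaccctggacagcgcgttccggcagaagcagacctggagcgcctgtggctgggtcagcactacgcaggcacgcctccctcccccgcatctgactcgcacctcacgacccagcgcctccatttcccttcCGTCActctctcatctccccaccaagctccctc
Lamp5: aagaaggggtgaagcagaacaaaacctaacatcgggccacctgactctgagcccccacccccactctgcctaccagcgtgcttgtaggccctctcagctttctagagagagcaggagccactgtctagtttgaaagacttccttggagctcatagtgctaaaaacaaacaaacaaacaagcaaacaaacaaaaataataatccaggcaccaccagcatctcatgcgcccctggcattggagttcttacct
In Sst the palindrome begins 48 bases before the start, and in Cck the shorter form begins 47 bases before it. In Gad2 the shorter form begins 33 bases before the start, and the Lamp5 window holds neither motif. A match of letters is a description and not a measured binding site.

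The libraries held 16759364 to 21794435 counts, and 3 counts corresponded to between 0.138 and 0.179 counts per 1000000 (CPM). Levels are given in CPM after TMM scaling, which adjusts each library size by a trimmed mean of its log gene ratios to a reference library. Genes of cortical excitatory neurons were present in every library, with a summed level of 12 genes between 6529 and 8321 CPM in sham and between 2529 and 5834 CPM in BCAS mice. A pair of libraries stood apart by genes of other tissue. In Sham 3, 5 genes of the choroid plexus summed to 760.4 CPM, against at most 62.3 CPM in the other 7 libraries. In BCAS 4, 8 genes of striatal neurons, among them Drd1, Drd2 and Adora2a, summed to 889 CPM, against 337 to 568 CPM in the other 7. Microglial genes, 7 in all, summed to between 327 and 397 CPM in sham and to 5369, 1414, 2733 and 2816 CPM in BCAS mice 1 to 4. The part of these cells in the results below was not tested, and values without Sham 3 and BCAS 4 are given beside the results they change.

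Compared with sham mice, 6 of the 10 markers were lower in the BCAS cortex and none was higher, nor was any higher at an unadjusted p under 0.05 or with DESeq2 or limma. Among those that passed, Lamp5, Pvalb and Cck had the largest decreases, followed by Npy, Sst and Gad1, while Vip, Gad2, Reln and Calb2 did not pass the test. A gene passed at an adjusted p under 0.05 in edgeR's quasi-likelihood test over the 17136 tested genes. The median log2 fold change of the 10 markers was -0.81, beside -0.01 over all tested genes. Among all tested genes 12.8% passed as lower and 19.2% as higher, and 1.28% were lower at the study's thresholds (adjusted p under 0.05 and a log2 fold change beyond 1), which 3 markers met, Lamp5, Pvalb and Cck. In bulk tissue, fewer cells of a type and less RNA per cell cannot be told apart, and a level in CPM is a share of all the RNA in a library.

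**Figure D1:**
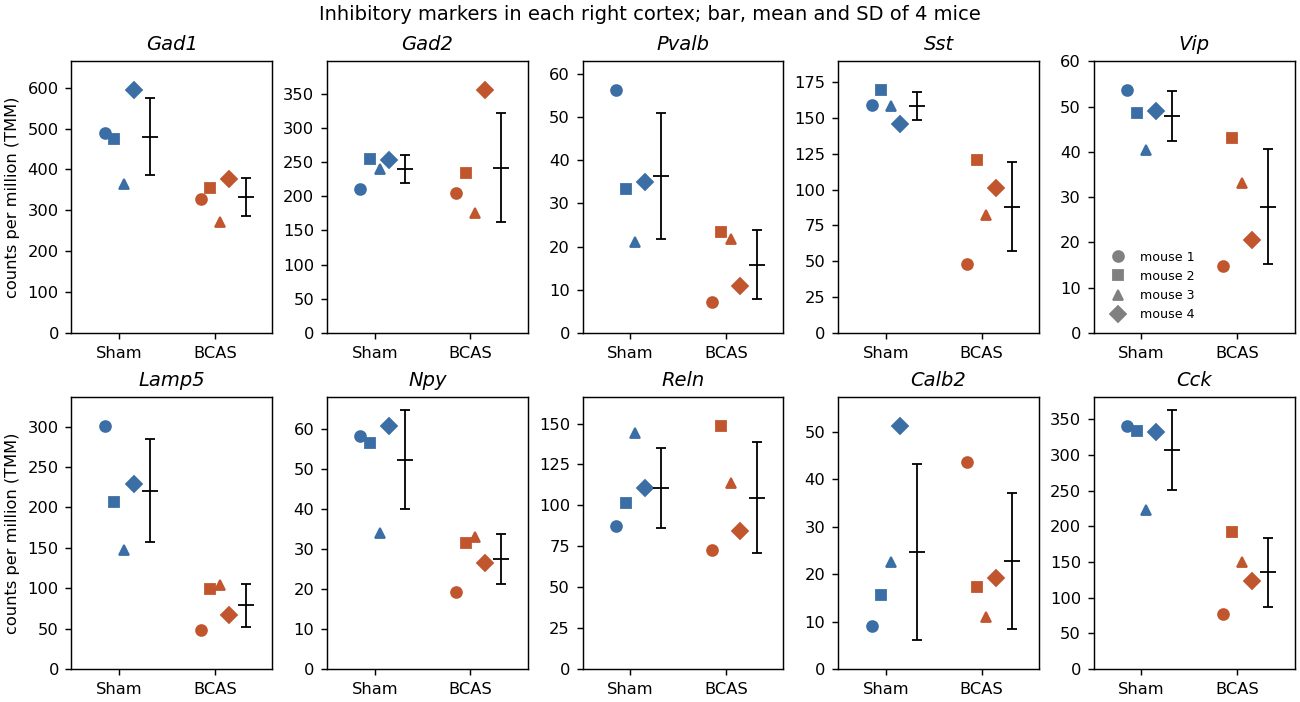
Level of each of the 10 markers in CPM after TMM scaling (vertical axis, starting at 0) in 4 Sham (blue) and 4 BCAS (orange) mice. Marker shapes give the mouse number within a group, which is not used as a pairing, and black bars give mean and SD. The groups are separate for Sst, Lamp5, Npy and Cck, whereas Gad2, Reln and Calb2 overlap widely.

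Of the pan-inhibitory pair, Gad1 was lower in BCAS mice and Gad2 did not pass the test. Gad1 (chr2:70553072-70602014, plus strand of mm10 in GENCODE vM20) was at 489, 474, 365 and 594 CPM in the 4 sham mice and at 326, 355, 272 and 378 CPM in the 4 BCAS mice. The BCAS values lay in the lower part of the range, and only the highest of them, in BCAS 4, exceeded the lowest sham value, in Sham 3. The mean went from 480.5 ± 93.6 to 333 ± 45.7 CPM (SD, n = 4 each), a log2 fold change of -0.53 (SE 0.16, adjusted p = 0.0361 in edgeR's test). This call was lost in 5 of the 8 fits that left out a library, those without Sham 1, Sham 2, Sham 4, BCAS 3 or BCAS 4, at adjusted p values from 0.0540 to 0.0952 and log2 fold changes from -0.65 to -0.42 over the 8. With library sizes alone in place of TMM scaling the log2 fold change of Gad1 was -0.44 and its adjusted p 0.0646.

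Gad2 (chr2:22622205-22693874, plus strand), whose enzyme is enriched at nerve terminals, was at 211, 255, 239 and 253 CPM in sham mice and at 204, 233, 175 and 355 CPM in BCAS mice. BCAS 4 lay above every other mouse, and the other 3 BCAS mice lay within or below the sham range. The log2 fold change was 0.02 (SE 0.20, adjusted p = 0.958), and without BCAS 4, the library with the high striatal genes, it was -0.23 (adjusted p = 0.215, edgeR's test). The Gad2 to Gad1 ratio was higher than the sham mean in all 4 BCAS mice, with a mean difference of 0.49 on the log2 scale, but an exact two-sided permutation test gave p = 0.0857. The smallest p that 4 mice against 4 allow is 0.0286.

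Among the subtype markers, Lamp5 (chr2:136052239-136069917, plus strand), which encodes a membrane protein of the LAMP family, had the largest decrease. It was at 300.4, 207, 147 and 229 CPM in sham mice and at 47.9, 98.8, 103 and 66.4 CPM in BCAS mice. Every BCAS mouse was below every sham mouse, and BCAS 1 was the lowest. The log2 fold change was -1.48 (SE 0.28, adjusted p = 0.00740 in edgeR's test), and it passed with each library left out in turn, with values from -1.64 to -1.29.

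Cck (chr9:121489824-121495694, minus strand), the precursor of the peptide cholecystokinin, was at 340.2, 334, 223 and 332 CPM in sham mice and at 76.8, 191, 149.9 and 123 CPM in BCAS mice. Again no value of the groups overlapped, although Sham 3 stood well below the other 3 sham mice. The log2 fold change was -1.18 (SE 0.26, adjusted p = 0.0122 in edgeR's test) and lay between -1.38 and -0.98 with each library left out, passing every time.

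Npy (chr6:49822710-49829507, plus strand), a peptide of neurogliaform and some somatostatin cells, was at 58.2, 56.4, 34.0 and 60.7 CPM in sham mice and at 19.2, 31.5, 32.9 and 26.4 CPM in BCAS mice. The groups were separated only narrowly, by Sham 3 and BCAS 3. Its log2 fold change was -0.93 (SE 0.22, adjusted p = 0.0155 in edgeR's test), and Npy passed with each library left out in turn, at an adjusted p of at most 0.0494.

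Sst (chr16:23889573-23890958, minus strand), the peptide of the dendrite-targeting class, had the tightest sham values of the 10 markers relative to its level. It was at 159, 169, 159 and 145 CPM in sham mice and at 47.9, 121, 82.6 and 101 CPM in BCAS mice. All 4 BCAS mice were below the sham range, and their own spread was wider, with an SD of 31.1 against 9.81 CPM. The log2 fold change was -0.84 (SE 0.24, adjusted p = 0.0279 in edgeR's test). Omission of any 1 sham mouse or of BCAS 3 ended this call, at adjusted p values up to 0.0722.

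Pvalb (chr15:78191114-78206400, minus strand), the calcium buffer of fast-spiking cells, was at 56.2, 33.3, 20.9 and 34.9 CPM in sham mice and at 7.12, 23.4, 21.7 and 10.9 CPM in BCAS mice. Its groups overlapped because Sham 3 was below BCAS 2 and BCAS 3. The log2 fold change of -1.20 (SE 0.41) just passed, at an adjusted p of 0.0495 in edgeR's test. It passed in 2 of the 8 fits that left out a library, without Sham 3 or without BCAS 2, with log2 fold changes from -1.44 to -0.92 over the 8.

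Vip (chr10:5639218-5647617, plus strand), the peptide of disinhibitory cells, was at 53.6, 48.6, 40.4 and 48.9 CPM in sham mice and at 14.8, 43.2, 33.1 and 20.6 CPM in BCAS mice. BCAS 2 lay inside the sham range and BCAS 1 and BCAS 4 far below it. The log2 fold change was -0.78 (SE 0.29) and did not pass, with an adjusted p of 0.0661 in edgeR's test, although Vip passed with DESeq2, limma-voom and limma on log2 CPM, at adjusted p values down to 0.0299.

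Reln and Calb2 showed no difference that could be told from the spread between mice. Reln (chr5:21884454-22344702, minus strand) was at 87.2, 101, 144 and 110.4 CPM in sham mice and at 72.8, 148, 114 and 84.2 CPM in BCAS mice, so that each group covered nearly the same range. Its log2 fold change was -0.08 (SE 0.23, adjusted p = 0.808 in edgeR's test). Calb2 (chr8:110137502-110168210, minus strand) was at 9.09, 15.7, 22.5 and 51.2 CPM in sham mice and at 43.8, 17.3, 10.9 and 19.2 CPM in BCAS mice. Sham 4 and BCAS 1 were the high values, 1 in each group, and the log2 fold change of -0.11 had the widest error of the 10, an SE of 0.55 (adjusted p = 0.896 in edgeR's test). Reln shares 1.04% of its exon bases with a gene on the opposite strand, and the other 9 markers share none.

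The groups were separate and lower in BCAS for 4 of the 10 markers, Sst, Lamp5, Npy and Cck, and 16.3% of all tested genes had groups separate in that direction. When Sham 3 and BCAS 4 were both left out, an alternative chosen after the data were seen, 4 markers passed as lower, Gad1, Lamp5, Npy and Cck. Pvalb then had an adjusted p of 0.103 and Sst of 0.0928.

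**Figure D2:**
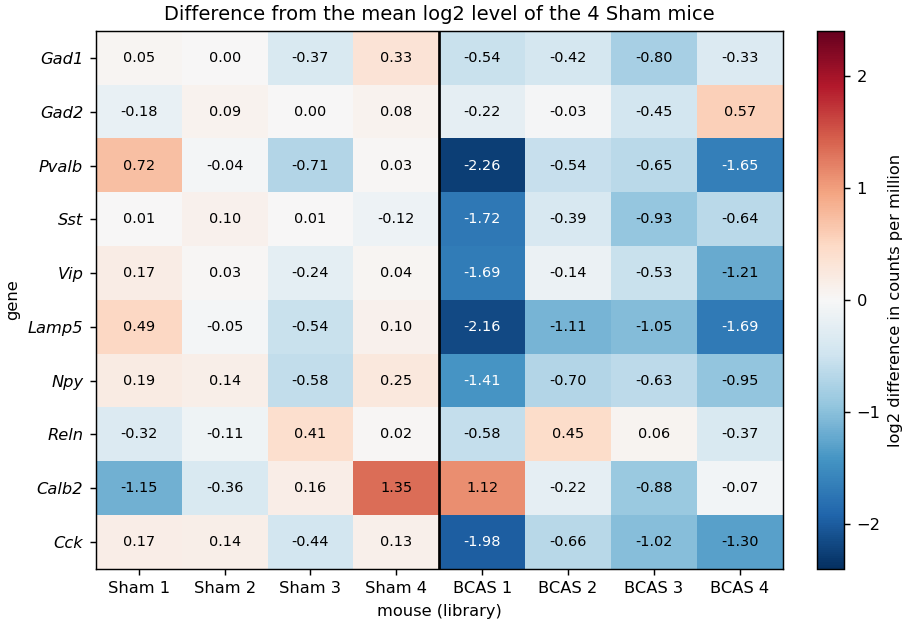
Log2 difference in CPM of each marker (rows) in each mouse (columns) from the mean log2 level of the 4 Sham mice, in colour and digits; the black line divides Sham from BCAS. BCAS 1 has the darkest blue in 7 of the 10 rows, and Gad2 in BCAS 4 and Calb2 in BCAS 1 are the largest values above the sham mean in BCAS mice.

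The mice differed in how far the markers had moved. BCAS 1 had the lowest value of its group for 7 of the 10 markers, with a median log2 difference from the sham mean of -1.55, and BCAS 2 had the highest for 5, with a median of -0.40. BCAS 3 and BCAS 4 lay between, at medians of -0.73 and -0.80. Each BCAS mouse had 9 of the 10 markers below the sham mean. The marker above it was Calb2 in BCAS 1, Reln in BCAS 2 and BCAS 3 and Gad2 in BCAS 4. BCAS 1 also had the lowest sum of 8 pan-neuronal genes, 3457 CPM, and the highest microglial sum, and BCAS 2 the highest pan-neuronal sum of its group, 7781 CPM, and the lowest microglial sum. The pan-neuronal sum was 9114 to 10498 CPM in sham mice. BCAS 3 differed from this order in the pan-inhibitory genes, where it had the lowest Gad1 and Gad2 of its group. Among sham mice, Sham 3 was the lowest for 6 of the 10 markers.

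Levels of different genes were compared per kilobase of exon. In sham mice Cck and Sst were highest, at 236 ± 43.0 and 219 ± 13.6 CPM per kilobase (SD, n = 4), and the ranges overlapped. Npy followed at 92.5, Lamp5 at 75.3, Gad1 at 62.9, Gad2 at 40.7 and Pvalb at 34.9 CPM per kilobase. Calb2 and Vip both stood at 14.1 and Reln, the longest transcript of the set, at 4.67 CPM per kilobase. Of the 9 steps between neighbours in this order, only Sst over Npy, Gad1 over Gad2 and Vip over Reln were separate in the values of the sham mice. In BCAS mice Sst was highest at 122 and Cck next at 104, again with overlap, and Lamp5 moved from the fourth place to the sixth, at 27.0 CPM per kilobase, below Gad1 at 43.5 and Gad2 at 41.2. In all 4 sham mice Lamp5 was above Gad1 per kilobase, and in none of the BCAS mice.

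To ask whether the subtype markers changed apart from the pan-inhibitory genes, each library was scaled to the geometric mean of its Gad1 and Gad2 counts in place of all genes. On that scale Lamp5 and Cck were lower in BCAS mice, and the other 6 subtype markers did not pass in edgeR's test with the main filter. Of all tested genes 0.718% passed as lower and 20.6% as higher on this scale, with a median log2 change of 0.28. The log2 change of Lamp5 relative to Gad1 and Gad2 was -1.15 (SE 0.29, adjusted p = 0.00391) and that of Cck -0.87 (SE 0.27, adjusted p = 0.0188), both in edgeR's test. Pvalb was at -0.86 (SE 0.35, adjusted p = 0.0799), Sst at -0.59 (SE 0.25, adjusted p = 0.0956) and Npy at -0.60 (SE 0.26, adjusted p = 0.100) in the same fit. Whether Pvalb passed depended on the filter and the tool: it passed with no filter and with at least 10 counts in every library (adjusted p = 0.00865 and 0.0446 in edgeR's test) and with limma-voom and limma on log2 CPM (adjusted p = 0.0444 and 0.0481), but not with DESeq2 or robust edgeR. Vip was at -0.46, Reln at 0.21 and Calb2 at 0.24, each with an adjusted p above that of Npy. With each library left out in turn Pvalb ran from -1.22 to -0.53 and passed in 3 of the 8 fits (without Sham 3, BCAS 2 or BCAS 3), and Vip ran from -0.70 to -0.25 and passed without BCAS 2 (adjusted p = 0.0482 in edgeR's test). Reln ran from 0.0360 to 0.455 and passed in none of these fits.

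**Figure D3:**
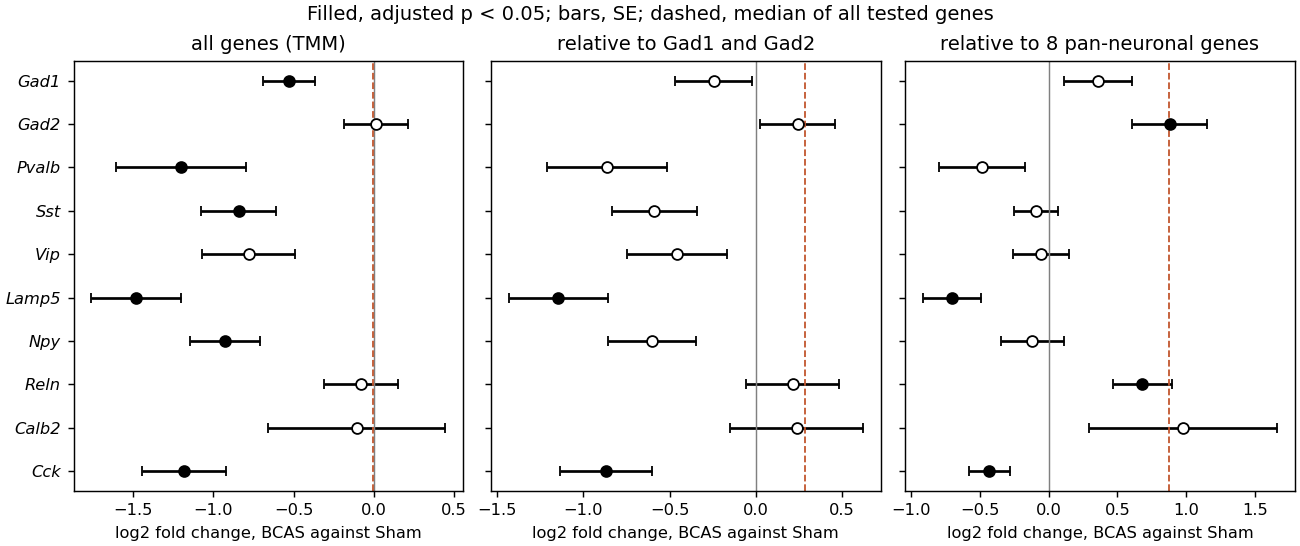
Log2 fold change of BCAS against Sham with its standard error (horizontal axis) for the 10 markers (rows), scaled to all genes (left), to Gad1 and Gad2 (middle) and to 8 pan-neuronal genes (right); filled points passed at an adjusted p under 0.05 and the dashed line is the median of all tested genes, at -0.01, 0.28 and 0.87. Lamp5 and Cck are filled on the left side of 0 in each panel.

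The ratio of each marker to the geometric mean of Gad1 and Gad2 was also taken within each mouse, so that a mouse served as its own reference. For Lamp5 the log2 ratio was -0.10, -0.75, -1.01 and -0.76 in the sham group and -2.43, -1.54, -1.08 and -2.46 in BCAS mice. No values overlapped, though BCAS 3 was close to Sham 3, and the means differed by -1.23 (exact two-sided permutation test, p = 0.0286). For Cck the log2 ratio was 0.08, -0.06, -0.40 and -0.23 in the sham group and -1.75, -0.59, -0.54 and -1.57 in BCAS mice. These groups did not overlap either, and the means differed by -0.96 (exact permutation test, p = 0.0286). In both genes BCAS 1 and BCAS 4 had the low ratios and BCAS 2 and BCAS 3 lay closer to the sham mice.

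That division of the BCAS mice recurred in other subtype markers, whose ratios share the same reference and so are not independent. The log2 difference of the Gad1 and Gad2 mean from the sham mean was -0.38, -0.22, -0.63 and 0.12 in BCAS mice 1 to 4. The log2 ratio of Vip to Gad1 and Gad2 was -4.12 in BCAS 1 and -4.15 in BCAS 4 but -2.74 in BCAS 2 and -2.72 in BCAS 3, inside the sham range of -2.99 to -2.58. Pvalb likewise was at -5.18 in BCAS 1 and -5.07 in BCAS 4, and at -3.62 in BCAS 2 and -3.33 in BCAS 3, against -3.82 to -2.51 in sham mice. Reln was divided in the same way, at -1.83, -0.96, -0.94 and -2.12 in BCAS mice 1 to 4. Calb2 was not, at -2.56, -4.05, -4.32 and -4.25. The differences in group means were -0.61 for Vip and -1.001 for Pvalb (exact permutation tests, p = 0.314 and p = 0.200), -0.64 for Sst (p = 0.0857, exact) and -0.65 for Npy (p = 0.0571, exact). Reln and Calb2 had positive differences of 0.17 and 0.26 (exact permutation tests, p = 0.743 and p = 0.714). These p-values are not adjusted for the 8 ratios compared.

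**Figure D4:**
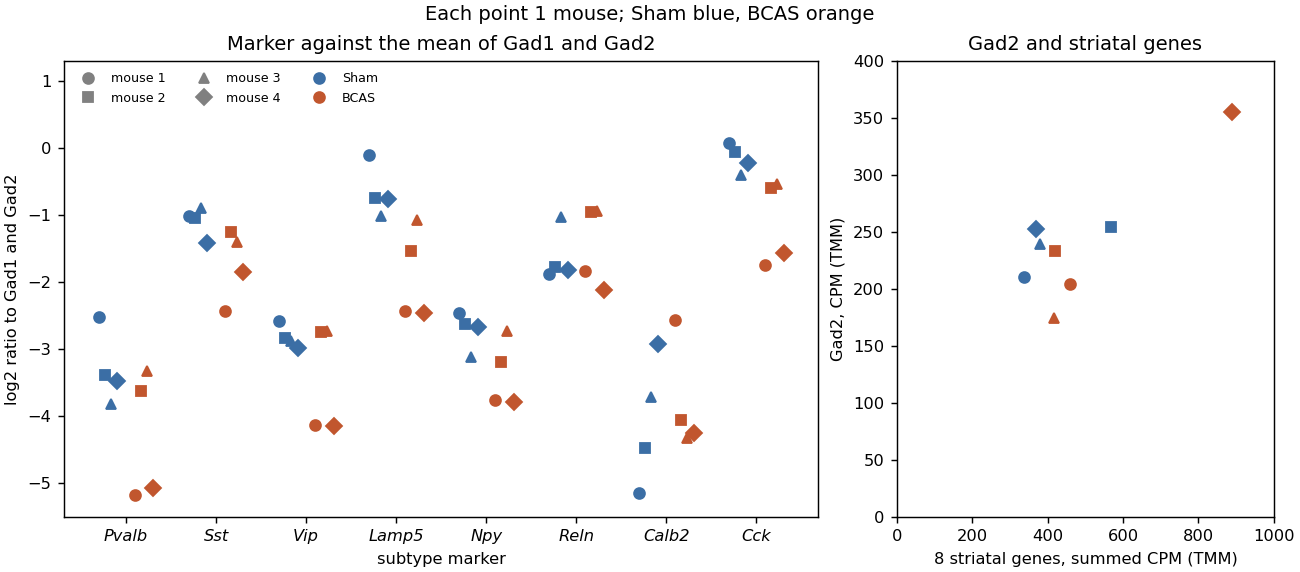
Left, log2 ratio of each subtype marker to the geometric mean of Gad1 and Gad2 in each mouse (blue, Sham; orange, BCAS; shapes, mouse number). Right, Gad2 against the sum of 8 striatal genes, both in CPM after TMM scaling; the BCAS mouse at 889 and 355 CPM is BCAS 4.

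The choice of reference changed this count. Against Gad1 alone only Lamp5 passed, and against Gad2 alone Pvalb, Sst, Lamp5, Npy and Cck passed. Against Slc32a1 alone, the vesicular GABA transporter, Lamp5 and Cck passed as with the main reference (adjusted p = 0.00375 and 0.0323 in edgeR's test), although the ratios of Lamp5 within each mouse then overlapped between the groups (exact permutation test, p = 0.0571). Gad2 was highest in BCAS 4, where the striatal genes were also highest, and without that mouse Lamp5 passed against Gad1 and Gad2 (log2 change -0.97, adjusted p = 0.0248 in edgeR's test) and Cck did not (-0.72, adjusted p = 0.0577). Cck was lost in 4 of the 8 fits that left out a library, also without Sham 1, Sham 2 or BCAS 1, at adjusted p values up to 0.0766 in edgeR's test.

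Scaled to 8 pan-neuronal genes (Rbfox3, Snap25, Syt1, Eno2, Elavl4, Syp, Syn1 and Map2), the markers divided further. Relative to these genes Gad2 and Reln were higher in BCAS mice, Lamp5 and Cck lower, and Gad1, Pvalb, Sst, Vip, Npy and Calb2 did not pass. On this scale 67.5% of all tested genes passed as higher and 0.21% as lower, and the median log2 change of all genes was 0.87, so the higher values of Gad2 and Reln lay near those of most genes. The log2 change was 0.88 for Gad2 (SE 0.27, adjusted p = 0.0197) and 0.68 for Reln (SE 0.21, adjusted p = 0.0201), in edgeR's test. It was -0.70 for Lamp5 (SE 0.21, adjusted p = 0.0182) and -0.43 for Cck (SE 0.15, adjusted p = 0.0302), in the same test. The call of Cck was lost with no filter, with DESeq2 and with excitatory genes or Rbfox3 alone as the reference, at adjusted p values from 0.0533 to 0.159, whereas Lamp5, Gad2 and Reln passed under each of these.

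Sst, Vip and Npy were close to the pan-neuronal genes, with log2 changes of -0.09 (SE 0.16), -0.06 (SE 0.21) and -0.12 (SE 0.23). Their sign was not stable: relative to 12 genes of excitatory neurons all 3 were slightly positive. Gad1 was at 0.36 (SE 0.25, adjusted p = 0.208 in edgeR's test), and ran from 0.10 without BCAS 1 to 0.49 without BCAS 2, passing in none of the fits that left out a library.

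The ratio within each mouse showed the same for Gad2. Its log2 ratio to the pan-neuronal genes was -2.04, -1.72, -1.70 and -1.72 in the sham group and -0.53, -1.54, -1.56 and -0.40 in BCAS mice. All 4 BCAS mice lay above the sham mice, 2 of them by a small margin, and the means differed by 0.79 (exact permutation test, p = 0.0286, over 10 ratios compared and unadjusted). The exact permutation test gave p = 0.0571 for Lamp5, Cck and Reln, whose groups overlapped in this ratio. Without Sham 1, none of the 10 markers passed on the pan-neuronal scale in edgeR's test, 3 had an unadjusted p under 0.05, and Gad2 had an adjusted p of 0.0604. Without BCAS 4 the adjusted p of Gad2 was 0.0572, and Lamp5 and Reln passed. Without Sham 3 and BCAS 4 together only Reln passed.

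Other genes of the inhibitory system, in lists chosen with earlier results of these data known, were read beside the 10 markers. Of the 6 genes that package, take up and break down GABA, none passed in edgeR's test, beside 12.8% of all tested genes lower and 19.2% higher. Of the 6, 1 had an unadjusted p under 0.05, and 1 passed as lower with DESeq2 and with limma on log2 CPM but none with limma-voom. Their median log2 fold change was -0.18, and relative to the pan-neuronal genes 5 of the 6 passed as higher, with a median of 0.68. On that scale 67.5% of all tested genes passed as higher, and the median of all genes, 0.87, was above that of the 6. Abat, which breaks GABA down, was at 0.15 (SE 0.13, adjusted p = 0.408 in edgeR's test).

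Of 8 genes of the fast-spiking class, 5 passed as lower and none as higher in edgeR's test, beside 12.8% and 19.2% of all tested genes, and 4 passed as lower with limma-voom. Their median log2 fold change was -0.83, but relative to the pan-neuronal genes none was lower and 2 were higher, with a median of -0.06. On that scale 0.21% of all tested genes passed as lower and 67.5% as higher, with a median of 0.87. Syt2, the fast calcium sensor of these terminals, was at -1.15 (SE 0.39, adjusted p = 0.0485), and Kcns3, a potassium channel subunit, at -0.93 (SE 0.26, adjusted p = 0.0285) in edgeR's test. Cplx1, a complexin of transmitter release, was at -0.87, and the Kv3 channel genes Kcnc1 and Kcnc2, which let these cells fire fast, were both at -0.83, Kcnc2 being named after its value was seen. Tac1 at 0.54 and Cox6a2 at 0.37 did not pass. Cplx1 and the Kv3 genes are also used by other neurons.

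Of 10 genes of the somatostatin class, 2 passed as lower and 1 as higher, shares near the 12.8% and 19.2% of all tested genes. Cort, which encodes the related peptide cortistatin, was at -1.07 (SE 0.35, adjusted p = 0.0448 in edgeR's test) and Crhbp, a binding protein of corticotropin-releasing hormone, at -0.94 (SE 0.30, adjusted p = 0.0410). Hpse, a heparanase that activated macrophages and microglia also make, was higher by 3.70 on the log2 scale, from between 1.14 and 2.29 CPM in sham mice to 37.2, 5.67, 29.8 and 17.7 CPM in BCAS mice. Calb1 at -0.61 and Nos1 at 0.22 did not pass.

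In the Vip class 1 of 5 genes passed as lower, a share that 1 gene sets, beside the 12.8% of all genes. It was Crh, the corticotropin-releasing hormone, at -0.63 (SE 0.18, adjusted p = 0.0305 in edgeR's test), while Penk at 0.65 and Htr3a at -0.50 did not pass. Although Lamp5 itself had the largest change of the 10 markers, none of 8 other genes of the Lamp5 and Sncg classes passed in edgeR's test, with 1 lower and 2 higher at an unadjusted p under 0.05 and 1 higher with DESeq2. Their median log2 fold change was -0.23. Cnr1, the cannabinoid receptor of cholecystokinin basket cells, was at -0.53 (SE 0.21, adjusted p = 0.0817) and Id2 at -0.24 (SE 0.12, adjusted p = 0.157) in the same test. Among the transcription factors of interneurons, Npas1 was lower, at -0.71 (SE 0.22, adjusted p = 0.0357 in edgeR's test), and Maf was higher, at 0.80 (SE 0.20, adjusted p = 0.0196). Maf is also made by microglia and macrophages, whose part in its level was not tested. It was at 43.8, 36.2, 28.7 and 31.8 CPM in sham mice and at 75.0, 40.5, 70.7 and 58.7 CPM in BCAS mice. The microglial sum was 5369, 1414, 2733 and 2816 CPM in BCAS mice 1 to 4, with BCAS 3 and BCAS 4 in the other order. Satb1 at -0.80 and Sox6 at 0.17 did not pass.

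Receptors of the secreted markers were lower in part. Of 13 tested, 6 passed as lower and none as higher in edgeR's test, beside 12.8% and 19.2% of all tested genes, with a median log2 fold change of -0.50. Relative to the pan-neuronal genes none of them was lower and 2 were higher, with a median of 0.21. Of all tested genes 0.21% passed as lower and 67.5% as higher on that scale, with a median of 0.87. Cckbr, the main brain receptor of cholecystokinin, was at 74.7, 68.4, 66.7 and 79.2 CPM in sham mice and at 15.8, 54.2, 38.0 and 24.3 CPM in BCAS mice. Its log2 fold change was -1.13 (SE 0.32, adjusted p = 0.0283 in edgeR's test). The somatostatin receptors Sstr3 at -1.004 and Sstr4 at -0.85 and the neuropeptide Y receptor Npy5r at -0.76 also passed. Dab1 and Vldlr, through which reelin signals, were at -0.35 and -0.18 and did not pass. For comparison, 5 of 8 pan-neuronal genes passed as lower, with a median of -0.74, and 7 of 12 genes of excitatory neurons, with a median of -0.88.

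**Figure D5:**
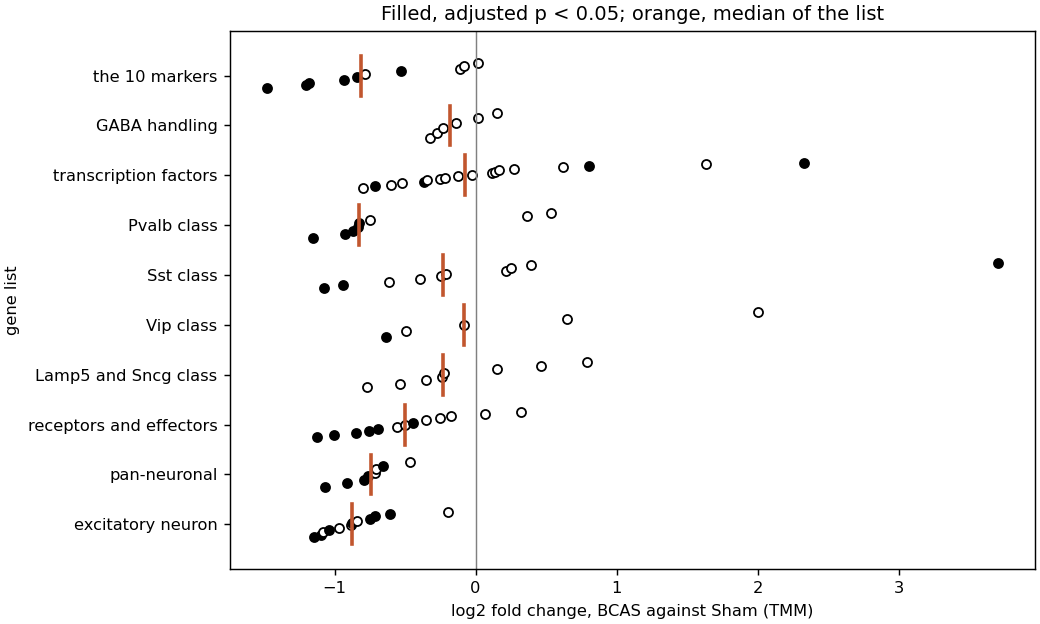
Log2 fold change of BCAS against Sham (horizontal axis, TMM scaling) of each tested gene in 10 lists (rows); filled points passed at an adjusted p under 0.05 and orange bars are list medians. The GABA handling genes hold no filled point, the fast-spiking class holds 5 filled points below 0, and the point farthest to the right is Hpse.

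Across mice, the genes whose pattern was most like the mean of Gad1 and Gad2 were Smarcd3, Fat3, Iglon5, Letm2 and Mcu, by the root-mean-square difference in log2 CPM relative to the sham mean over the 8 libraries, among 10930 genes with a mean of at least 10 CPM. The difference ran from 0.07 for Smarcd3 to 0.13 for Mcu. Of the subtype markers Reln was nearest to the pan-inhibitory mean, at 0.46, followed by Sst and Npy at 0.58, and Pvalb and Lamp5 were farthest, at 0.98 and 0.99.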

How the data were processed

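The libraries were paired-end RNA-seq of right cortex from 4 sham and 4 BCAS mice, grouped by the labels. Per the methods, the authors trimmed the reads with Trim Galore, aligned them to mm10 with HISAT2 and counted them per gene with featureCounts, and they deposited raw counts without normalization. The file headers name featureCounts 2.0.1, GENCODE vM20 and no strand option, whereas the methods name version 1.6.3 and RefSeq genes. The tables also give a length per gene, used for levels per kilobase. Gene symbols were matched by identifier for 54723 of 54752 genes from a later GENCODE release.

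The main test was edgeR 4.0.16 (quasi-likelihood, TMM, filterByExpr, no covariates) in R 4.3.3, with Benjamini-Hochberg adjustment over 17136 tested genes. The same fit was repeated with library sizes set to the geometric mean of Gad1 and Gad2, or of 8 pan-neuronal genes, which treats the reference as known, so ratios within each mouse were also compared by exact permutation over 70 arrangements. Alternatives were other scalings, filters, references and thresholds, DESeq2 1.42.0, limma 3.58.1, a replicate block and leaving out each library. The fits were tested on simulated data. Motifs were searched in RefSeq promoter windows. Any 2 libraries differed in the counts of at least 25056 genes.

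The 10 markers and the other gene lists were chosen with earlier results of these data known. All 10 markers are named. Of each other list, at most 4 genes that passed (largest absolute log2 fold change) and 2 that did not (highest mean CPM) are named, and for the pattern of Gad1 and Gad2, the 5 nearest genes. Genes outside this rule are said to be so. Some genes of these lists are not reported here.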

Additional observations from a re-analysis of the deposited data

Results flagged for a closer look

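In 56 groups of 4 values (the CPM of each marker and its log2 ratios to Gad1 and Gad2 and to the pan-neuronal genes, in sham and in BCAS mice), 7 had a sample whose gap to its neighbour took a larger part of the group's range than Dixon's critical value for 4 samples allows. Chance alone gives about 1 such group in 20, and the groups are not independent, since each gene enters several times.

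Sham 3 was the far sample in 5 of the 7. Its Npy was 34.0 CPM against 56.4 to 60.7 in the other sham mice (gap over range 0.839), and its Cck was 223 against 332 to 340.2 CPM (0.926). Relative to the pan-neuronal genes its log2 ratio was -4.51 for Npy against -3.89 to -3.78 (0.843) and -1.80 for Cck against -1.35 to -1.33 (0.958). Its log2 ratio of Reln to Gad1 and Gad2 was high instead, -1.03 against -1.88 to -1.78 (0.882). This library also held 760.4 CPM of choroid plexus genes, and the part of that in these values was not tested. Without Sham 3 the log2 fold changes of Npy and Cck were -1.10 and -1.32 (adjusted p = 0.0132 and 0.0188 in edgeR's test), so both calls were kept.

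Sham 1 had a log2 ratio of Gad2 to the pan-neuronal genes of -2.04 against -1.72 to -1.70 in the other sham mice (0.941). Without it the log2 change of Gad2 on that scale was 0.81 (adjusted p = 0.0604 in edgeR's test), which did not pass. BCAS 1 had a log2 ratio of Calb2 to Gad1 and Gad2 of -2.56 against -4.32 to -4.05 in the other BCAS mice (0.849), and the log2 change of Calb2 without it was -0.38 (adjusted p = 0.477), against 0.24 with it.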

How the results depend on the processing

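Of the 10 markers, 6 passed against sham, and the count was between 4 and 7 under the other scalings, filters and tools. It was 3 with a log2 fold change beyond 1 and 3 to 7 with each library left out (3 without Sham 1, Sham 2, Sham 4 or BCAS 3, when Lamp5, Npy and Cck passed). Gad1 and Pvalb did not pass with library sizes alone, nor Pvalb with robust edgeR or at least 10 counts in every library. Against Gad1 and Gad2, the count of 2 became 1 with Gad1 alone, 5 with Gad2 alone, 3 with both other filters, limma-voom and limma on log2 CPM (Pvalb added), 1 with a log2 change beyond 1, and 1 to 5 with each library left out, Lamp5 passing in each: it was 1 without Sham 1, Sham 2, BCAS 1 or BCAS 4, 4 without BCAS 3 and 5 without BCAS 2. Without Sham 3 and BCAS 4 together, chosen after the data were seen, it was 1. Against pan-neuronal genes, the count of 4 was 3 or 4 under other references, filters and tools (Cck lost), 0 to 4 with each library left out (0 without Sham 1, 1 without Sham 4, 2 without Sham 2 or BCAS 4) and 1 without Sham 3 and BCAS 4. With DESeq2, 8 pan-neuronal and 11 excitatory genes passed in place of 5 and 7. The causes were not tested, except that fewer mice entered the fits that left some out.

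Reversed signs were found only in changes that did not pass. Gad2 was at -0.0306 with limma-voom, -0.0327 with limma on log2 CPM and -0.0334 with the replicate block, at -0.23 to 0.14 with each library left out and at -0.23 without Sham 3 and BCAS 4. Reln ranged from -0.29 to 0.0675 with each library left out and was 0.17 without Sham 3 and BCAS 4. Calb2 was 0.0285 with limma-voom and ranged from -0.63 to 0.53, from -0.38 to 0.74 against Gad1 and Gad2 and from -0.0352 to 1.603 against pan-neuronal genes, and Vip against the latter from -0.13 to 0.0417. Against excitatory genes Sst, Vip and Npy were at 0.0283, 0.0549 and 0.0147, and against Rbfox3 alone at 0.0229, 0.0824 and 0.0114.

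Sham and BCAS mice share replicate numbers, and the labels do not say whether these pair mice. Same-numbered libraries did not deviate together (correlations of -0.05, -0.10, -0.01 and 0.00), which cannot show how the mice were handled. The main test did not pair them. With the replicate block 5 markers passed against sham (Pvalb lost, adjusted p = 0.107 in edgeR's test), 3 against Gad1 and Gad2 (Sst gained, adjusted p = 0.0408) and 3 against pan-neuronal genes (Cck lost, adjusted p = 0.101), and 3546 in place of 5490 of all genes.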

Other observations

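Some markers varied between mice of a group together with other genes of the same lists, in ways that crossed the groups. These genes were named after their values were seen, and the values are given without a test. Calb2 was highest in Sham 4 and BCAS 1, at 51.2 and 43.8 CPM, and between 9.09 and 22.5 CPM in the other 6 mice. Sp8, a transcription factor of interneurons born in the caudal and dorsal parts of the ventral forebrain, was at 19.5 and 16.5 CPM in those mice and between 1.91 and 6.18 CPM in the others. Vipr2, a receptor of vasoactive intestinal peptide, was at 6.82 and 8.62 CPM there and between 0.341 and 3.49 CPM in the others. Dlx2, a transcription factor of the GABA lineage, was at 17.3 and 14.9 CPM there and between 4.70 and 10.7 CPM in the others.

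Reln was highest in Sham 3 and BCAS 2, at 144 and 148 CPM, and between 72.8 and 114 CPM in the other 6 mice. Nr2f2, a nuclear receptor of interneurons born in the caudal ganglionic eminence, was at 38.9 and 39.8 CPM in those mice and between 9.35 and 30.2 CPM in the others. Npy2r, a receptor of neuropeptide Y, was at 18.1 and 16.3 CPM there and between 3.92 and 11.1 CPM elsewhere. Nos1, which makes nitric oxide, was at 87.7 and 99.7 CPM there and between 44.9 and 76.1 CPM elsewhere.

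Gad2 was highest in BCAS 4, at 355 CPM, and so were peptides and enzymes of striatal and basal forebrain neurons. Penk was at 187 CPM there and between 47.7 and 117 CPM in the other 7 mice, Tac1 at 67.1 against 13.7 to 37.6 CPM, and Pdyn at 57.8 against 21.7 to 40.9 CPM. Chat, the acetylcholine synthase, was at 9.53 against 0.362 to 3.34 CPM, and Nkx2-1 at 3.87 against 0.121 to 1.08 CPM. Slc32a1, the vesicular GABA transporter, was at 107 CPM in BCAS 4 and at 51.9, 68.9 and 54.5 CPM in the other BCAS mice, and between 78.8 and 89.8 CPM in sham mice. Pvalb, at 10.9 CPM, and Vip, at 20.6 CPM, were low in the same mouse.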
